A study of Mus musculus with 10 samples.

Results

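The Hox genes are the 39 genes whose symbols join Hox, a cluster letter from a to d and a paralogue number. All 39 were present among the 47643 genes of the tables, with 11 in the Hoxa cluster, 10 in Hoxb, 9 in Hoxc and 9 in Hoxd, and they were chosen by name alone. The libraries came from mesenchymal cells sorted out of the Peyer's patches, lymphoid organs built into the small intestine, of C57BL/6 mice. MRC libraries (n = 5) held cells with the surface phenotype CD45-, EpCAM1-, TER119-, CD31-, Podoplanin+ and MAdCAM1+. MCi libraries (n = 5) held cells of the same gate that were MAdCAM1-, so that MAdCAM1, an adhesion molecule for lymphocytes, was the only labelled difference. No treatment or altered allele is given for either group, and the labels do not say whether libraries came from separate or pooled animals, so that a p-value here reflects no more than the variation among these 10 libraries, possibly technical in part.

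Hox genes encode transcription factors that bind DNA through a homeodomain and give cells of the trunk their position along the head-to-tail axis. Within a cluster the genes lie on the chromosome in the order in which they are used along that axis, low paralogue numbers towards the head and high ones towards the tail. Mesenchymal cells of the gut wall are known to carry such a code into adult life, with the highest paralogue groups typical of the hindgut.

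Members of paralogue group 8 carry the most posterior Hox transcripts that were measured in quantity, and their homeoboxes are printed to show how alike the genes are in that part. Each is the 180-base homeobox from GENCODE M21 transcripts (GRCm38, plus strand), at chr15:102992571-102992750 for Hoxc8, chr2:74706525-74706704 for Hoxd8 and chr11:96284174-96284353 for Hoxb8. Capitals mark the stretch that codes for the core of the helix that contacts DNA.
Hoxc8: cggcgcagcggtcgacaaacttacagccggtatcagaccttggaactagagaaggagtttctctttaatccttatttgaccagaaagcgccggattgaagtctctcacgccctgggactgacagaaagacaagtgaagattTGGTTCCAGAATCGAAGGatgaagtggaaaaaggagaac
Hoxd8: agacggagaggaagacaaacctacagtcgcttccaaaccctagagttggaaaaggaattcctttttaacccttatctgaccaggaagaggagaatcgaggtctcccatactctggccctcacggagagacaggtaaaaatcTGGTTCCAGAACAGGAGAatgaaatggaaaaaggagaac
Hoxb8: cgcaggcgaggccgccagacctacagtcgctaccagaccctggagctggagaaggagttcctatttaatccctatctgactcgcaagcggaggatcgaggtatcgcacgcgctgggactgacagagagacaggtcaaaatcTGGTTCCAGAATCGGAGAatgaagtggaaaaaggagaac
Hoxc8 and Hoxd8 had 73.3% identical bases and no shared run longer than 15 bases. Hoxb8 shared 80.0% with Hoxc8 and 80.6% with Hoxd8, with longest shared runs of 21 and 17 bases. Over all 39 homeoboxes, the 42 pairs within a paralogue group had a median identity of 80.6% and the 699 other pairs a median of 60.6%, and no pair shared a run longer than 52 bases. The 180 bases are a small part of the exon length, which is 1868 bases for Hoxc8, 2744 for Hoxd8 and 2635 for Hoxb8.

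Hox transcripts were present at low levels in both populations. Summed over the 39 genes, they took 3287 exon reads in MRC and 5764 in MCi. Levels are given as CPM, counts of exon reads relative to the library total, with totals scaled by the trimmed mean of M values (TMM). Libraries held between 3941032 and 8738115 exon reads, replicates 4 and 5 of each group being the deepest, and 3 reads corresponded to between 0.343 and 0.761 CPM of the unscaled totals. Of the 39 genes, 14 passed the filter on low counts, 5 of Hoxa, 4 of Hoxb, 4 of Hoxc and 1 of Hoxd, all of them from paralogue groups 2 to 8. The other 25 comprised 19 with at most 5 reads in every library, among them Hoxc12 with no read at all, and 6 with more.

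Libraries also differed in markers of cells outside the gate, although mesenchymal markers were high in each. The 14 mesenchymal markers summed to between 27025 and 134989 CPM in MRC and between 45850 and 76743 CPM in MCi. The 15 epithelial markers, all detected, summed to 13.1, 415, 6133, 35660 and 49783 CPM in MRC 1 to 5 and to between 18.6 and 1436 CPM in MCi. In MRC4 and MRC5 the epithelial sum exceeded the mesenchymal one, so these libraries stood apart, and values without them are given for the Hox genes on which the comparison turned. In sorted bulk samples, fewer cells of a type and less RNA per cell cannot be told apart.

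**Figure D1:**
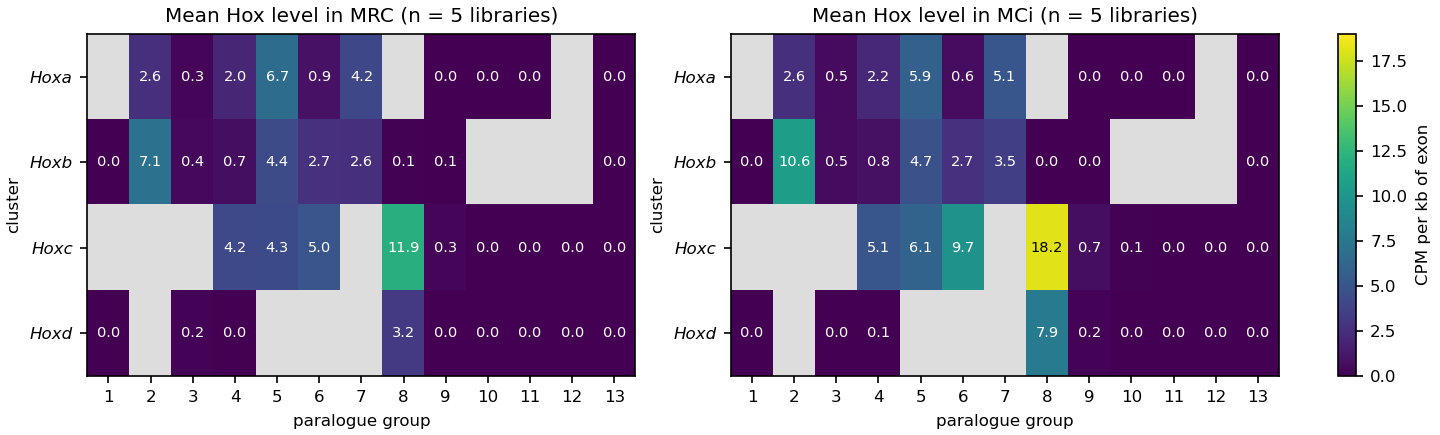
Mean level of Hox genes in MRC (left) and MCi (right), as CPM per kb of exon, by cluster (rows) and paralogue group (columns), with grey where the mouse has no gene or no value is shown (n = 5 libraries each). Signal lies in groups 2 to 8 in both maps, with Hoxc8 brightest at 11.9 in MRC and 18.2 in MCi, and groups 10 to 13 are at or near 0.

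Well covered Hox transcripts ended at group 8 in both populations. Of the 12 members of paralogue groups 10 to 13, which mark the hindgut and the tail end of the body axis, 10 reads in all were counted in MRC and 17 in MCi, and none had more than 3 reads in any library. At this depth a gene with such counts cannot be told from one that is silent. Group 9 was the border. Hoxc9 had 4, 2, 8, 0 and 2 reads in MRC 1 to 5, against 8, 11, 9, 5 and 12 reads in MCi 1 to 5, so that its counts overlapped between the groups. Hoxd9 had 2 reads over MRC and 11 over MCi, Hoxa9 had 2 and 1, and Hoxb9 had 3 and 3. None of the 4 was tested.

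Coverage also differed between the clusters. In Hoxb it ended at Hoxb7. Hoxb8 had 4 reads over MRC and 4 over MCi, next to the near-silent Hoxb9, whereas Hoxc8 and Hoxd8 of the same paralogue group were well covered. In the Hoxd cluster, Hoxd8 alone was well covered, while Hoxd4 had 2 reads in MRC and 6 in MCi and Hoxd1 had 0 and 2. Hoxd3 had 20 reads in MRC, of which 18 came from MRC4, and 4 in MCi. At the anterior end, Hoxb1 had 0 reads in MRC and 2 in MCi. Untested members with more than 5 reads in a library included Hoxa6 (20 reads in MRC and 17 in MCi), Hoxb3 (41 and 60) and Hoxb4 (40 and 58).

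The Hox clusters also hold the genes of miR-196, a microRNA family that is known to cleave Hoxb8 mRNA. Its sequences are shown with the Hoxb8 site because Hoxb8 was barely detected while Hoxc8 and Hoxd8 were well covered. Mature sequences are from RefSeq (GRCm38.p6), miR-196a-5p at chr11:96265187-96265208 (plus strand) between Hoxb9 and Hoxb13, with a further copy at chr15:102973365-102973386, and miR-196b-5p at chr6:52230129-52230150 (minus strand). Capitals in the microRNAs mark the seed, bases 2 to 8. The Hoxb8 site lies in the 3′ untranslated region at chr11:96284888-96284909 (GRCm38, plus strand), and its capitals mark the bases opposite the seed.
miR-196a-5p: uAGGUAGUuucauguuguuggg
miR-196b-5p: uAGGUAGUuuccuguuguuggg
Hoxb8 site: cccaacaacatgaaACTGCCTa
The Hoxb8 site pairs with miR-196a-5p at 21 of 22 positions by Watson-Crick pairing and at 1 by a G-U wobble. The plain seed match ACTACCT, searched on the transcript strand, occurred in the first 500 bases of the 3′ untranslated region in 7 of 33 Hox genes with a region of that length (21.2%) and in 248 of 12951 genes in all (1.91%). Hoxb8 itself held no plain seed match, as the wobble of its site lies opposite the seed, so it is not among the 7. Hoxc8, well covered here, held 2 such matches over its whole 3′ untranslated region, and Hoxa7 held 4. Hoxa4, Hoxa5, Hoxb6 and Hoxb7, which were also tested, held 1 each, as did the barely detected Hoxa9 and Hoxb1. The rows for these microRNAs have an exon length of 0 in the tables, so the microRNAs were not measured and their part in any Hox level was not tested.

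Order of levels within each population was read per kb of exon, using the deposited exon length of each gene. Ranks between genes depend on that length, and which transcript forms were expressed was not examined. Hoxc8 was highest in both, at 11.9 ± 4.46 CPM per kb in MRC and 18.2 ± 5.82 CPM per kb in MCi (SD, n = 5 each). Hoxb2, an anterior member of its cluster, came second in both, at 7.13 ± 1.89 CPM per kb in MRC and 10.6 ± 3.15 CPM per kb in MCi. Further down the order differed. Hoxd8 ranked 9 of 14 in MRC, at 3.20 ± 0.711 CPM per kb, and 4 of 14 in MCi, at 7.94 ± 2.08 CPM per kb. Hoxa5 ranked 3 in MRC, at 6.70 ± 2.14 CPM per kb, and 6 in MCi, at 5.86 ± 3.03 CPM per kb. From Hoxb2 down to Hoxa4, neighbours in either order lay closer together than the larger SD of the pair, so those ranks are loose.

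The comparison asked whether cells with and without MAdCAM1 differ in this code. No Hox gene was called different by edgeR's quasi-likelihood test at an adjusted p of 0.05, neither higher in MRC (0 of 14, background 0.0742% of the 12127 genes tested) nor lower in MRC (0 of 14, background 0.363%); in either direction 0.437% of the genes were called. Below an unadjusted p of 0.05 there were 2, Hoxd8 and Hoxc6, both lower in MRC (background 6.09%). DESeq2 called both of these lower in MRC and no Hox gene higher, where its calls over all genes came to 2.34% lower and 4.79% higher in MRC. Every MRC library lay below every MCi library for the same 2 of 14, against 2.69% of all genes tested, and every MRC library lay above every MCi library for 0 of 14, against 1.1%. The log2 fold change, MRC minus MCi, was negative for 12 of the 14 (49.0% of all genes tested), with a median of -0.37 beside 0.01 over all genes. With MRC4 and MRC5 left out, edgeR again called 0 of the Hox genes.

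**Figure D2:**
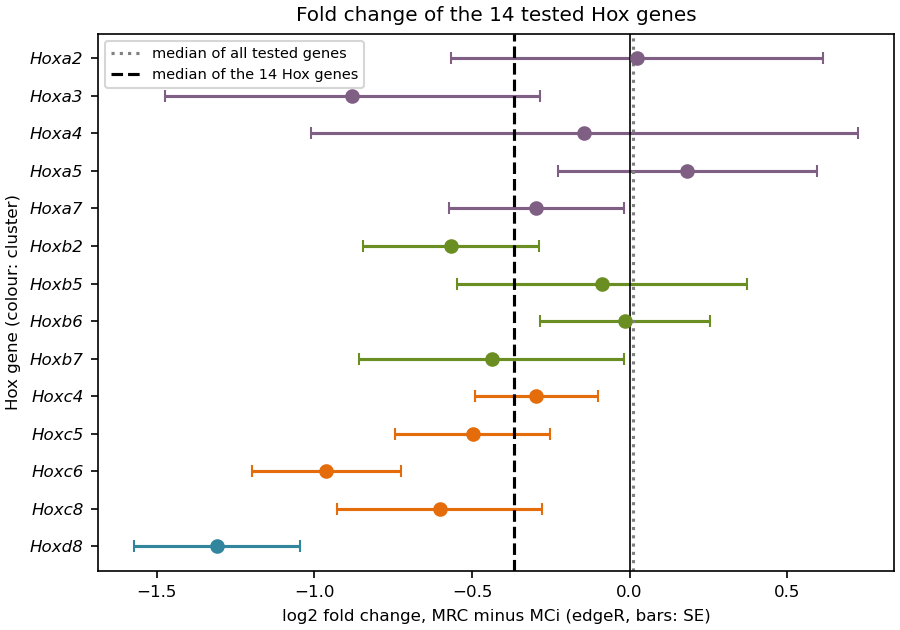
Log2 fold change, MRC minus MCi, of the 14 tested Hox genes (points) with its SE (bars) from edgeR, coloured by cluster; the dashed line is their median, -0.37, and the dotted line the median of all tested genes, 0.01. Hoxd8 at -1.31 and Hoxc6 at -0.96 lie farthest to the left, and Hoxa2 and Hoxa5 lie right of 0.

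Hoxd8 (ENSMUSG00000027102, GRCm38, chr2:74704615-74707933, plus strand), the posterior-most well covered gene of its cluster, showed the largest difference of the 14. It stood at 9.74, 10.6, 8.90, 5.48 and 9.28 CPM in MRC 1 to 5, against 22.4, 29.5, 22.1, 21.5 and 13.4 CPM in MCi 1 to 5. The groups did not overlap, and the lowest MCi library, MCi5, still exceeded the highest MRC library, MRC2. Means were 8.79 ± 1.95 CPM in MRC and 21.8 ± 5.72 CPM in MCi (SD, n = 5 each), 2.48-fold higher in MCi. The log2 fold change was -1.31 ± 0.26 (SE), with an unadjusted p of 0.000426 and an adjusted p of 0.0633 by edgeR, which misses the threshold. DESeq2 gave an adjusted p of 0.000921. With a term for replicates 1 to 3 against 4 and 5, added after the data were seen, edgeR gave 0.0209. Over all 24 alternatives that tested Hoxd8 the adjusted p ran from 0.000921 to 0.170. Of these, 5 called it lower in MRC and 19 did not call it.

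Hoxc6 (chr15:102998257-103011881, plus strand), a trunk gene of the Hoxc cluster, also lay lower in every MRC library. Its level was 13.5, 13.9, 11.5, 11.7 and 9.28 CPM in MRC 1 to 5, against 32.0, 28.4, 18.6, 16.2 and 21.7 CPM in MCi 1 to 5, again without overlap. The means of 12.0 ± 1.85 CPM in MRC and 23.4 ± 6.65 CPM in MCi correspond to -0.96 ± 0.24 on the log2 scale, with an adjusted p of 0.118 by edgeR (unadjusted 0.00186). DESeq2 gave an adjusted p of 0.0111, and over all 25 alternatives it ran from 0.0111 to 0.253. Of these, 3 called Hoxc6 lower in MRC and 22 did not call it.

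Marker sums of some other cell types were lower in MRC as well. The 11 smooth muscle and pericyte markers, none at 0 throughout, summed to between 1133 and 2110 CPM in MRC and between 3056 and 5194 CPM in MCi, with 2 of 11 called lower in MRC by edgeR (background 0.363%). Interstitial cell of Cajal markers summed to between 179 and 346 CPM in MRC and between 347 and 732 CPM in MCi, with 0 of 4 called (3 below an unadjusted p of 0.05). Mesothelial markers summed to between 1.42 and 61.7 CPM in MRC and between 20.2 and 848 CPM in MCi, which overlap, with 2 of 6 called lower in MRC. Of the mesenchymal markers 0 of 13 were called (3 below an unadjusted p of 0.05), and 7 had negative fold changes. Over all genes tested, 6.09% were below an unadjusted p of 0.05 by edgeR and lower in MRC, and 10.6% were so and higher. The part of these cell types in the Hoxd8 and Hoxc6 values was not tested. In MRC1, the library with the lowest epithelial marker sum of all, 13.1 CPM, Hoxd8 was at 9.74 CPM and Hoxc6 at 13.5 CPM. MRC1 is 1 library and also had the lowest mesothelial sum, 1.42 CPM. The part of epithelial RNA in the Hoxd8 and Hoxc6 values was not tested. Without MRC4 and MRC5, the log2 fold change was -1.16 for Hoxd8 (edgeR adjusted p = 0.0841) and -0.85 for Hoxc6 (adjusted p = 0.189).

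**Figure D3:**
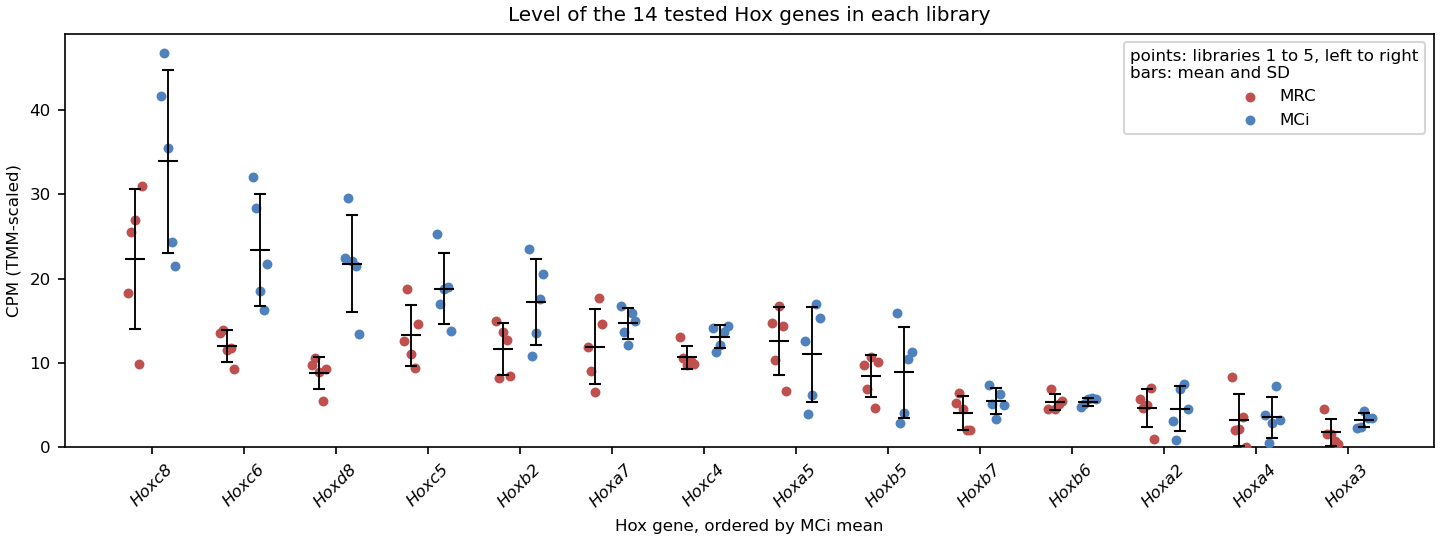
TMM-scaled CPM of the 14 tested Hox genes in each library, MRC (red) left of MCi (blue) for every gene, with libraries 1 to 5 as points from left to right and the mean and SD as bars. For Hoxd8 the MRC points lie between 5.48 and 10.6 and the MCi points between 13.4 and 29.5, and for all but Hoxd8 and Hoxc6 the groups overlap.

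Hoxc8 (chr15:102990607-102994111, plus strand), the most abundant Hox transcript, gave 18.3, 25.5, 26.9, 9.86 and 31.0 CPM in MRC 1 to 5 and 41.7, 46.7, 35.4, 24.4 and 21.4 CPM in MCi 1 to 5. The groups overlapped through MCi4 and MCi5, which lay among the MRC libraries. Averages of 22.3 ± 8.34 CPM in MRC and 33.9 ± 10.9 CPM in MCi correspond to -0.60 ± 0.33 on the log2 scale (adjusted p = 0.382 by edgeR). Within replicates 1 to 3 the value was -0.80 (adjusted p = 0.212) and within replicates 4 and 5 it was -0.26 (adjusted p = 0.760).

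The neighbours of Hoxc6 and Hoxc8 in the same cluster had smaller differences. Hoxc5 was at 12.6, 18.8, 11.1, 9.39 and 14.6 CPM in MRC 1 to 5 and at 25.3, 17.0, 18.8, 19.0 and 13.8 CPM in MCi 1 to 5, with MCi2, MCi3 and MCi5 inside the MRC range (fold change on the log2 scale -0.50 ± 0.25, adjusted p = 0.348). Hoxc4, the most anterior mouse Hoxc gene, lay between 9.77 and 13.1 CPM in MRC and between 11.2 and 14.4 CPM in MCi (-0.30 ± 0.19, adjusted p = 0.487). All 4 tested Hoxc genes thus had negative values, of which none passed the test.

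In the Hoxa cluster the groups overlapped for every tested gene. Hoxa7, the posterior-most covered member, was at 11.9, 9.01, 6.51, 17.7 and 14.6 CPM in MRC 1 to 5 and 16.8, 13.7, 12.1, 16.0 and 14.9 CPM in MCi 1 to 5. Its highest and its lowest library were both MRC libraries, MRC4 and MRC3 (fold change on the log2 scale -0.30 ± 0.28, adjusted p = 0.652). Hoxa5, which is required for normal lung and gut development in mice, averaged 12.6 ± 4.02 CPM in MRC, against 11.0 ± 5.68 CPM in MCi (0.18 ± 0.41, adjusted p = 0.875). Among MCi libraries alone it lay between 3.97 and 16.9 CPM, a wider range than the MRC one. Hoxa2, Hoxa3 and Hoxa4 averaged 4.67, 1.75 and 3.23 CPM in MRC, against 4.58, 3.18 and 3.52 CPM in MCi. Hoxa3 had the most negative value of the cluster, -0.88 ± 0.59 (adjusted p = 0.501), with a range of 0.395 to 4.51 CPM in MRC that spans the MCi range through MRC1 alone. The other MRC libraries, at most 1.54 CPM, lay below every MCi library, and without MRC1 the value was -1.59 (adjusted p = 0.129).

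In the Hoxb cluster the gene with the highest level per kb was an anterior one. Hoxb2, a hindbrain gene in the embryo, was at 14.96, 8.24, 13.7, 12.7 and 8.49 CPM in MRC 1 to 5 and 23.5, 10.8, 13.6, 17.6 and 20.5 CPM in MCi 1 to 5. MCi2 and MCi3 lay within the MRC range (fold change on the log2 scale -0.57 ± 0.28, adjusted p = 0.342). Hoxb7, the most posterior covered member, was at 5.22, 6.44, 4.56, 2.03 and 1.97 CPM in MRC 1 to 5 and 7.39, 5.07, 3.33, 6.33 and 5.05 CPM in MCi 1 to 5, with overlap (-0.44 ± 0.42, adjusted p = 0.662). Hoxb5, known for its part in the enteric nervous system, averaged 8.42 ± 2.52 CPM in MRC, against 8.90 ± 5.41 CPM in MCi. Hoxb6 averaged 5.34 ± 1.00 CPM in MRC, against 5.39 ± 0.48 CPM in MCi. Fold changes of Hoxb5 and Hoxb6 were -0.09 and -0.01 on the log2 scale, and their sign turned under some of the alternatives. Both genes lie inside the antisense gene row Hoxb5os. The 11 enteric glial and neuronal markers summed to between 7.60 and 399 CPM in MRC and between 154 and 460 CPM in MCi. By edgeR 0 of 8 tested were called, with a median log2 fold change of -2.07 and 6 negative (49.0% over all genes). Below an unadjusted p of 0.05 there were 3, where over all genes 6.09% were so and lower in MRC and 10.6% so and higher. The part of these cells and of Hoxb5os in the Hoxb5 values was not tested.

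Summed by cluster, the groups lay apart for Hoxc and Hoxd, the Hoxd sum being mostly Hoxd8. All 39 genes together reached 156, 144, 142, 123 and 124 CPM in MRC 1 to 5 and 236, 188, 177, 195 and 175 CPM in MCi 1 to 5, with no overlap. The order held with unscaled library totals, between 103 and 151 CPM in MRC and between 189 and 258 CPM in MCi, and with median-of-ratios size factors. The Hoxc sum was 59.05 ± 10.8 CPM in MRC, against 91.2 ± 19.0 CPM in MCi, and the Hoxd sum 9.75 ± 1.10 CPM in MRC and 22.7 ± 5.90 CPM in MCi, neither overlapping. Of the Hoxd means, Hoxd8 made up 8.79 CPM in MRC and 21.8 CPM in MCi, so the Hoxd sum largely restates that gene. Sums for Hoxa were 35.9 ± 10.4 CPM in MRC, against 38.7 ± 11.5 CPM in MCi, and for Hoxb 33.2 ± 5.77 CPM in MRC and 41.6 ± 11.8 CPM in MCi, both overlapping. These sums are descriptions and carry no test.

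**Figure D4:**
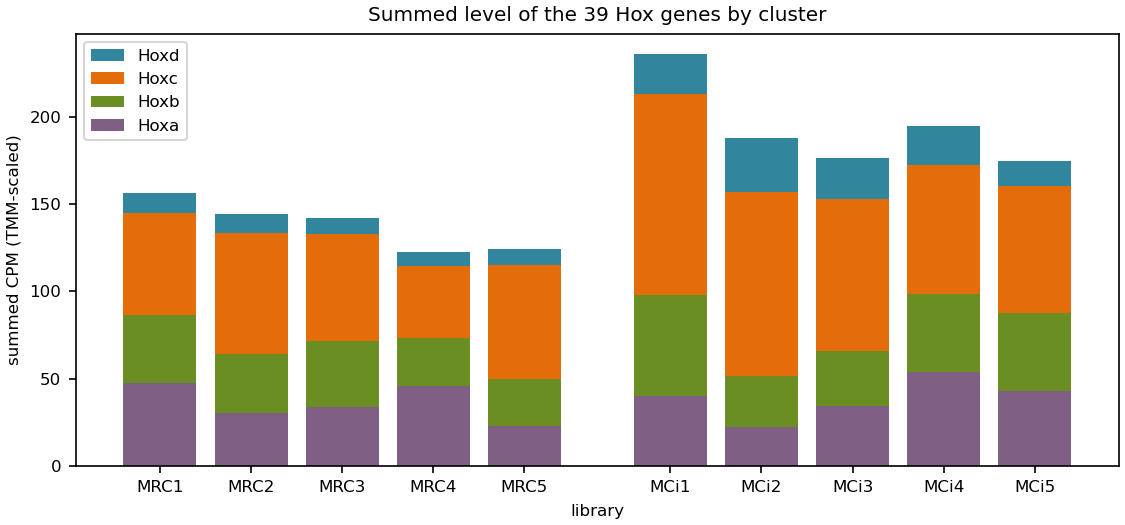
Summed TMM-scaled CPM of the 39 Hox genes in each library, stacked by cluster, with the 5 MRC libraries left of the 5 MCi libraries. MRC bars reach between 123 and 156 CPM and MCi bars between 175 and 236 CPM. The Hoxd segment, mostly Hoxd8, is between 8.45 and 11.2 CPM in MRC and between 14.2 and 30.8 CPM in MCi.

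Shares of the Hox reads do not depend on how libraries were scaled. Hoxd8 took 6.35 ± 1.20% of the Hox reads in MRC and 11.3 ± 3.06% in MCi, with every MRC library, up to 7.46%, below every MCi library, from 7.66%. Hoxc6 took 8.68 ± 0.94% in MRC and 12.0 ± 2.64% in MCi, where MCi4 at 8.34% lay within the MRC range. Hoxc8 took 16.3 ± 6.57% in MRC and 17.5 ± 5.31% in MCi, and Hoxa as a cluster took 26.1 ± 7.57% in MRC and 20.1 ± 6.23% in MCi. By paralogue group, only group 6 was without overlap, at 15.01 to 21.9 CPM in MRC and 22.9 to 37.0 CPM in MCi. Its means of 18.1 CPM in MRC and 29.3 CPM in MCi included Hoxc6 at 12.0 and 23.4 CPM and Hoxb6 at 5.34 and 5.39 CPM. The difference in group 6 thus largely restates Hoxc6. All other groups overlapped, such as group 5, at 28.5 to 38.4 CPM in MRC and 23.8 to 53.7 CPM in MCi. Group 8, with Hoxc8 and Hoxd8, was at 15.3 to 40.3 CPM in MRC and 35.0 to 76.7 CPM in MCi.

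How the reads were assigned bears on these members. For 9 of the 14, Hoxd8, Hoxc6 and Hoxc8 among them, the deposited unique exon reads were only 9.15% to 20.3% of the total exon reads, and for the other 5 they were 72.3% to 99.8%. All 9 lie wholly inside the extent of another gene row, such as Hoxd8 inside the antisense gene Hoxd3os1 and Hoxc6 and Hoxc8 inside Hoxc5, and for all 9 the unique exon reads equalled the unique exon-exon junction reads. Total exon reads were used throughout. The kit does not mark strand, so reads of a Hox gene and of an antisense gene across it cannot be told apart. With unique exon reads, the fold change of Hoxc6 was -1.23 on the log2 scale (adjusted p = 0.194 by edgeR), Hoxc8 had -0.81 (adjusted p = 0.279), and Hoxd8 had too few reads to be tested.

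Beside the 39 Hox rows, the 4 clusters hold 46 further rows, 25 of them with an exon length of 0. At least 1 exon read was counted for 16 and more than 30 for 8. Hotairm1, a noncoding gene at the anterior end of Hoxa that is known to regulate nearby Hoxa genes in myeloid cells, was the only one tested, with 53 reads in MRC and 91 in MCi (fold change on the log2 scale -0.47 ± 0.45, adjusted p = 0.658).

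Hox proteins bind DNA together with cofactors of the Pbx, Meis and Pknox (Prep) families, and 8 of the 9 such genes were tested, with 0 called by edgeR (1 below an unadjusted p of 0.05, where over all genes 6.09% were so and lower in MRC and 10.6% so and higher) and a median log2 fold change of 0.06. Meis1, a Hox partner in many mesodermal tissues, was at 115, 149, 151, 70.0 and 37.9 CPM in MRC 1 to 5 and 125, 107, 110, 86.2 and 91.8 CPM in MCi 1 to 5. The groups overlapped throughout, and means were 104.6 ± 49.7 CPM in MRC and 103.9 ± 15.4 CPM in MCi (fold change on the log2 scale 0.01 ± 0.33, adjusted p = 0.994). Pknox2 was at 65.5, 67.7, 78.4, 63.2 and 39.5 CPM in MRC 1 to 5 and 82.0, 83.1, 72.3, 96.2 and 105 CPM in MCi 1 to 5. MCi3 alone overlapped the MRC range (-0.48 ± 0.19, adjusted p = 0.255). Pbx3 stood at 43.2 to 61.3 CPM in MRC 1 to 3 but 2.66 and 8.89 CPM in MRC4 and MRC5, against 13.3 to 37.1 CPM in MCi. Replicates 4 and 5 were the lowest in both groups for Pbx3; the part of epithelial RNA in this was not tested. For Pbx2, Meis2, Meis3 and Pknox1 the log2 fold changes were -0.30, 0.11, -0.45 and 0.13, with adjusted p between 0.394 and 0.921. Pbx4 was too low to be tested.

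**Figure D5:**
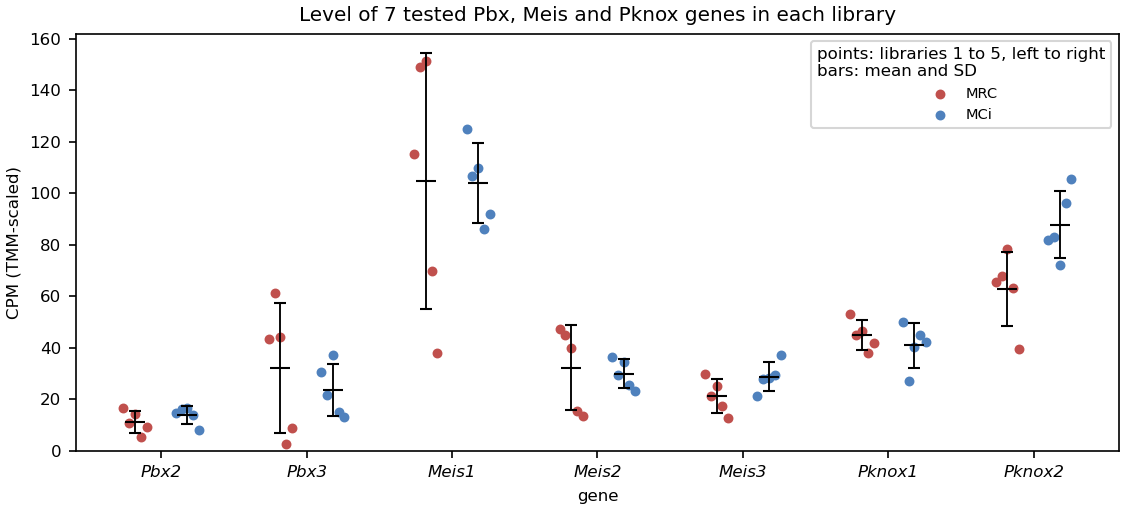
TMM-scaled CPM of 7 tested Pbx, Meis and Pknox genes in each library, MRC (red) left of MCi (blue) for every gene, with libraries 1 to 5 as points from left to right and the mean and SD as bars. Meis1 reaches 151 CPM in MRC, and MRC4 and MRC5 lie far below MRC 1 to 3 for Pbx3 and Meis2, while Pknox2 is lower in MRC at 62.9 CPM on average than in MCi at 87.8 CPM.

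Genes that act upstream of the Hox clusters were compared as lists. The median log2 fold changes were -0.04 for the retinoic acid receptors, 0.03 for the Polycomb genes and 0.06 for the trithorax genes, against 0.01 over all genes. Of the retinoic acid receptors, which switch on anterior Hox genes in the embryo, 5 of 6 were tested and 0 called by edgeR. Below an unadjusted p of 0.05 there was 1, where over all genes 6.09% were so and lower in MRC and 10.6% so and higher. Rarb, itself a retinoic acid target, was at 15.2, 17.5, 17.2, 18.5 and 14.6 CPM in MRC 1 to 5 and 25.5, 20.9, 29.7, 22.3 and 24.2 CPM in MCi 1 to 5. The groups did not overlap, and the log2 fold change was -0.56 ± 0.17 (edgeR adjusted p = 0.179). Rxrb, a partner receptor, had -0.17 and Rara had 0.11 on the same scale.

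Polycomb proteins keep Hox genes silent and trithorax proteins keep them active. All 23 Polycomb genes and all 12 trithorax and related genes of the lists were tested, with 0 called by edgeR in either list (2 below an unadjusted p of 0.05 in each, no larger a share than the 6.09% lower and 10.6% higher in MRC over all genes together). Cbx8, a Polycomb reader of methylated histone H3, averaged 5.54 ± 4.01 CPM in MRC, against 2.21 ± 0.45 CPM in MCi, with MRC4 at 11.4 and MRC5 at 7.31 CPM (fold change on the log2 scale 1.33 ± 0.52, adjusted p = 0.249). Phc1 and Cbx7, further Polycomb members, had -0.57 (adjusted p = 0.259) and -0.47 (adjusted p = 0.409). Psip1, a chromatin reader that maintains Hox expression, was between 36.3 and 55.2 CPM in MRC and between 56.0 and 83.7 CPM in MCi, without overlap (-0.49 ± 0.17, adjusted p = 0.222). Kmt2b and Kdm6b encode a histone methyltransferase and a histone demethylase that favour active Hox genes; they had 0.72 (adjusted p = 0.293) and 1.21 (adjusted p = 0.382), the second with its highest values in MRC4, at 42.4 CPM, and MRC5, at 24.7 CPM.

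Of the 8 ParaHox and Evx genes, relatives of the Hox genes outside or at the edge of the clusters, only Cdx1 and Cdx2 were tested. By edgeR 0 were called and 1 was below an unadjusted p of 0.05. Over all genes 6.09% were so and lower in MRC and 10.6% so and higher. Cdx1 and Cdx2 are transcription factors of intestinal epithelium. Cdx2 was at 0.00, 1.80, 6.51, 90.3 and 74.3 CPM in MRC 1 to 5 and between 0.00 and 7.05 CPM in MCi (fold change on the log2 scale 3.49 ± 1.46, adjusted p = 0.270). Its high libraries were MRC4 and MRC5, the 2 with the highest epithelial marker sums, whose part in the Cdx values was not tested. Cdx1 followed the same libraries, at 72.0 CPM in MRC4 and 120 CPM in MRC5 (2.22 ± 1.47, adjusted p = 0.494).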

How the data were processed

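One table per library lists 47643 genes; per the file headers the authors deposited read counts (total exon, unique exon, gene, exon-exon and intron), with RPKM values. Per the labels' protocols, RNA was extracted with a micro column kit and amplified with SMART-Seq v4; GRCm38 is the build per the submitters' processing notes. The aligner was not given in the sources used here, nor was the gene annotation. Total exon read counts of the authors were fitted over all genes passing filterByExpr (minimum count 10, minimum total 15; 12127 genes) with TMM factors and edgeR 4.0.16 (quasi-likelihood, robust; R 4.3.3), Benjamini-Hochberg adjustment and a threshold of 0.05; the SE is the absolute log2 fold change over the root of F. Levels are CPM, divided by exon length for order. Reads carry no molecular identifiers, so floors cover counting error only, whereas the SD and the SE include variation among libraries. Alternatives were DESeq2 1.42.0 and its size factors, other filters, the replicate number as a block, libraries left out, unique exon or gene reads, and limma 3.58.1 on log2 of the authors' RPKM plus 1 or 0.1; replicates 1 to 3 or 4 and 5 alone, and a term for these sets, were added after the data were seen. Homeoboxes and 3′ untranslated regions were read from GENCODE M21 transcripts and microRNAs from RefSeq, whose builds and gene coordinates match those of the tables. The procedure was tested on simulated data with 200 changed genes.

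Named Hox genes with every library's value are those tested whose mean reached 20 CPM in a group, an unadjusted p under 0.05, or the highest paralogue number tested in their cluster, with neighbours added for context; of every list the members ranked 1 to 3 by p are named, and of the cofactors all. Results of some genes are not reported here. The members and lists were chosen with earlier results of these data known. Tables and plots used Python 3.11.15, pandas 2.3.3, numpy 2.4.6 and matplotlib 3.10.9.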

Additional observations from a re-analysis of the deposited data

Results flagged for a closer look

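Among 54 groups of 5 libraries checked with Dixon's ratio (the gap of the extreme library to its nearest neighbour over the range of the group, critical value 0.71), 2 stood out, where chance flags about 1 group in 20. Hoxa3 in MRC had its highest library, MRC1 at 4.51 CPM, far from the other four at 1.55 CPM or less (ratio 0.721). Hoxc4 in MRC had its highest library, also MRC1, at 13.1 CPM, against at most 10.6 CPM in the others (ratio 0.761). For neither gene did edgeR call a difference between MRC and MCi.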

How the results depend on the processing

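Hoxd8 and Hoxc6 stayed negative under every alternative that tested them, and no alternative called a Hox gene higher in MRC. Hox genes called lower in MRC numbered 2 by DESeq2 and by limma on log2(RPKM + 1) and log2(RPKM + 0.1), and 1 by unfiltered limma and with the term for library sets. Both filtered RPKM fits shift the median of all genes to -0.21 and -0.26. The median of the Hox genes was -0.72 with log2(RPKM + 0.1) and -0.65 in replicates 4 and 5 alone, where all genes had -0.09, and it ran from -0.52 to -0.29 with single libraries left out. Genes called over the whole table numbered 53 in the main analysis, 1080 by DESeq2, 244, 159 and 149 by the 3 limma fits, 128 without MRC4 and MRC5, 95 in replicates 1 to 3, 3460 in replicates 4 and 5, 206 with the term, and 19 to 49 with single libraries left out.

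Signs turned for 6 genes, none of them called in any setting. Hoxa2 was -0.031 with unique reads, -0.10, -0.13 and -0.10 in the limma fits and -0.60 in replicates 4 and 5, where Hoxa5 was -0.66. Hoxb6 was 0.0041 with DESeq2 size factors. Without MRC4 and MRC5, Hoxa4 was 0.23 and Hoxb5 0.030; in replicates 1 to 3, Hoxa4 was 0.82, Hoxb5 0.26, Hoxb6 0.049 and Hoxb7 0.037. With single libraries left out, Hoxa2 ran from -0.22 to 0.29, Hoxa3, always negative, from -1.59 to -0.62, Hoxa4 from -0.85 to 0.31, Hoxa5 from -0.012 to 0.39, Hoxb5 from -0.30 to 0.21 and Hoxb6 from -0.13 to 0.038. The causes were not tested.

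Whether replicate numbers pair the libraries is not given by the labels, and the data do not settle it: same-numbered libraries correlated at 0.56, -0.25, 0.06, 0.35 and 0.49 in their deviations over 12127 genes, and not every library correlated best with its own number. With the replicate block, Hoxd8 was -1.30 (edgeR adjusted p = 0.134), Hoxb5 was 0.082 (0.065 with a correction for exon length) and 49 genes were called. Depth limits the members of groups 9 to 13, which had too few reads to be tested.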
